A study of Mus musculus with 14 samples.

Results

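The genes described here are 10 members of the bone morphogenetic protein (BMP) pathway, chosen by name: the ligand Bmp4, its antagonist Nog, the receptors Bmpr1a, Bmpr1b and Bmpr2, the inhibitory Smad6, and the inhibitor of DNA binding genes Id1, Id2, Id3 and Id4. A probe set, the unit that an Affymetrix array measures, was taken where its annotation named one of these symbols and no other. All 10 genes were found, on 23 of 45037 probe sets, among 18193 genes with a probe set of their own. Bmpr1a had 6 probe sets, 3 each measured Id2, Id4, Bmpr1b and Bmpr2, and 1 each measured the other 5 genes. Where a gene had several, the one with the highest mean over all arrays is called its brightest.

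The study isolated cells from the brains of 8-week-old mice by fluorescence-activated cell sorting and measured total RNA on 14 arrays after a 2-cycle amplification. All mice carried eGFP under the human GFAP promoter, so GFP marks cells in which that transgene promoter is active, and control groups carry it too. DIEC_GFP (n = 4) held GFP-positive cells of the diencephalon, labelled astrocytes. From the subependymal zone, a neurogenic niche along the lateral ventricle, came SEZ_GFPprom (GFP-positive and prominin-positive, n = 4), SEZ_GFP (GFP-positive, n = 2) and SEZ_Prom (prominin-positive, n = 2), all labelled neural stem, and SEZ_CD24 (CD24-positive, n = 2), labelled ependymal. The labels call the arrays of a group biological replicates but do not say which animals, or how many, went into each, and every p-value here refers to the array-to-array spread, which may be partly technical. No label gives the GFP status of SEZ_Prom and SEZ_CD24 or the prominin status of SEZ_GFP.

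Values are intensities on a linear scale from 3 to 18925, and on each array 25.4% to 25.7% of probe sets lay at 10 or under, where differences are poorly measured. Marker genes did not match every label. The summed intensity of the ependymal markers was 353 to 565 in SEZ_CD24, against 14943 to 25398 in SEZ_GFPprom, and neuroblast markers summed to 15850 to 26792 in SEZ_CD24. Neuroblast markers were similar in SEZ_GFP (14999 to 17361). SEZ_CD24 also carried microglial (12655 to 25408), choroid plexus (9212 to 14865) and erythrocyte (3509 to 9020) signal. SEZ_Prom carried choroid plexus (12880 to 13426) and the highest mature neuron signal (12991 to 13118). Choroid plexus signal also varied widely within SEZ_GFP (512 to 9264), DIEC_GFP (1208 to 8730) and SEZ_GFPprom (421 to 7754). Microglial signal reached 11840 in DIEC_GFP. DIEC_GFP expressed astrocyte markers (17949 to 32065) but also oligodendrocyte markers (29711 to 40409), which were as high in SEZ_Prom (31543 to 32410). Endothelial markers were low in every group (281 to 595), with Cdh5 and Tie1, a junction protein and a receptor of that cell type, at 10 or under on every array of 4 groups. The mean log2 ratio of 3' to 5' control probe sets, a measure of RNA length, ran from 4.63 in SEZ_Prom to 5.40 in DIEC_GFP.

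BMPs are secreted dimers that bring together type I receptors (Bmpr1a, Bmpr1b) and type II receptors (Bmpr2) at the cell surface. The activated type I receptor phosphorylates Smad1, Smad5 or Smad8, which enter the nucleus with Smad4 and switch on targets, of which the Id genes are the best known. Id proteins lack a DNA-binding region and hold bHLH partners away from DNA. Noggin binds ligands outside the cell, Smad6 blocks the pathway inside it, and in the subependymal zone BMP signalling is known for its influence on stem cell quiescence and on the choice between neuronal and glial fate.

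The 3 members whose brightest probe set separated SEZ_GFPprom from DIEC_GFP are Id3, Id4 and Bmp4, and the 250 bases before their transcription start are shown for that reason. They come from RefSeq (GRCm38.p6), whose list of promoters matched 8 of the 10 members. Capitals mark GGCGCC, a GC-rich element bound by BMP-activated Smads, and CANNTG, the E-box bound by bHLH factors. Both strands were searched over 300 bases, from 250 before to 50 after the start, and no matches overlapped in the windows shown.
Id3, chr4:136143572-136143821, plus strand: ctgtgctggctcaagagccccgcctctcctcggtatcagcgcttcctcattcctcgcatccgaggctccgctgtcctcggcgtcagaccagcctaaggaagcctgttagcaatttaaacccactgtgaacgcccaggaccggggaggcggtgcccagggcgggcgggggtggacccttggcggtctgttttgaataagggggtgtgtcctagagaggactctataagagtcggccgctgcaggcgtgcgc
Id4, chr13:48260866-48261115, plus strand: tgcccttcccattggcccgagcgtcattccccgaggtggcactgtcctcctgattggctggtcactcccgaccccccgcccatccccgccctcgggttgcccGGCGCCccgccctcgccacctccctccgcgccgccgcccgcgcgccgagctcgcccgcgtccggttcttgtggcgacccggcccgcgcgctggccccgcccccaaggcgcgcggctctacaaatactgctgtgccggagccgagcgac
Bmp4, chr14:46390670-46390919, minus strand: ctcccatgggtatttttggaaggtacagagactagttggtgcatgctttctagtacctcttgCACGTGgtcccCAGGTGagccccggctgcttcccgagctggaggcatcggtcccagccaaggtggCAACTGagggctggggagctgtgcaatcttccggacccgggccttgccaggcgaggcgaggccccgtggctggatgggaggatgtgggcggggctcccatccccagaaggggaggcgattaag
GGCGCC occurred in 11.9% of 32851 windows of this length, and CANNTG in 72.3%. The Id4 window held 1 GGCGCC, 148 bases before the start, and no E-box. The Id3 window held neither motif. The Bmp4 window held 3 E-boxes, 188, 177 and 123 bases before the start, and no GGCGCC. Id2, Bmpr2 and Bmpr1a also held GGCGCC, 231, 105 and 198 bases before the start. A match of letters is a description and not a binding site. The windows of Id3, Id4 and Bmp4 held 60.0%, 73.3% and 64.0% G and C, against a median of 52.7%.

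Within the family, differences were tested with limma across all probe sets, with Benjamini-Hochberg adjustment and a threshold of 0.05. Comparing SEZ_GFPprom with DIEC_GFP, 6 of the 23 probe sets passed, where 12% of all probe sets passed. Of these, 5 were higher (6.43% of all) and 1 was lower (5.60% of all). By brightest probe set, 2 of the 10 members were higher, Id3 and Id4, where 8.83% of all genes were, and 1 was lower, Bmp4, where 6.77% were. SEZ_GFP against DIEC_GFP passed 3 of 23 (7.90% of all), 2 higher and 1 lower (3.95% of all in each direction). SEZ_GFPprom against SEZ_Prom (3.67% of all, 2.07% higher), SEZ_GFPprom against SEZ_CD24 (9.39%, 5.10% higher) and SEZ_Prom against SEZ_CD24 (3.22%, 1.73% higher) each passed 1 probe set, that of Id3, higher in the first group. SEZ_GFPprom against SEZ_GFP passed none with limma (1.69% of all), with 1 member probe set at an unadjusted p under 0.05. The F test over the 5 groups passed 5 of 23 (16.9% of all), which are Id3, Bmp4 and all 3 of Id4. The median member difference between SEZ_GFPprom and DIEC_GFP was -0.07 in log2 intensity, beside 0.05 over all probe sets.

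**Figure D1:**
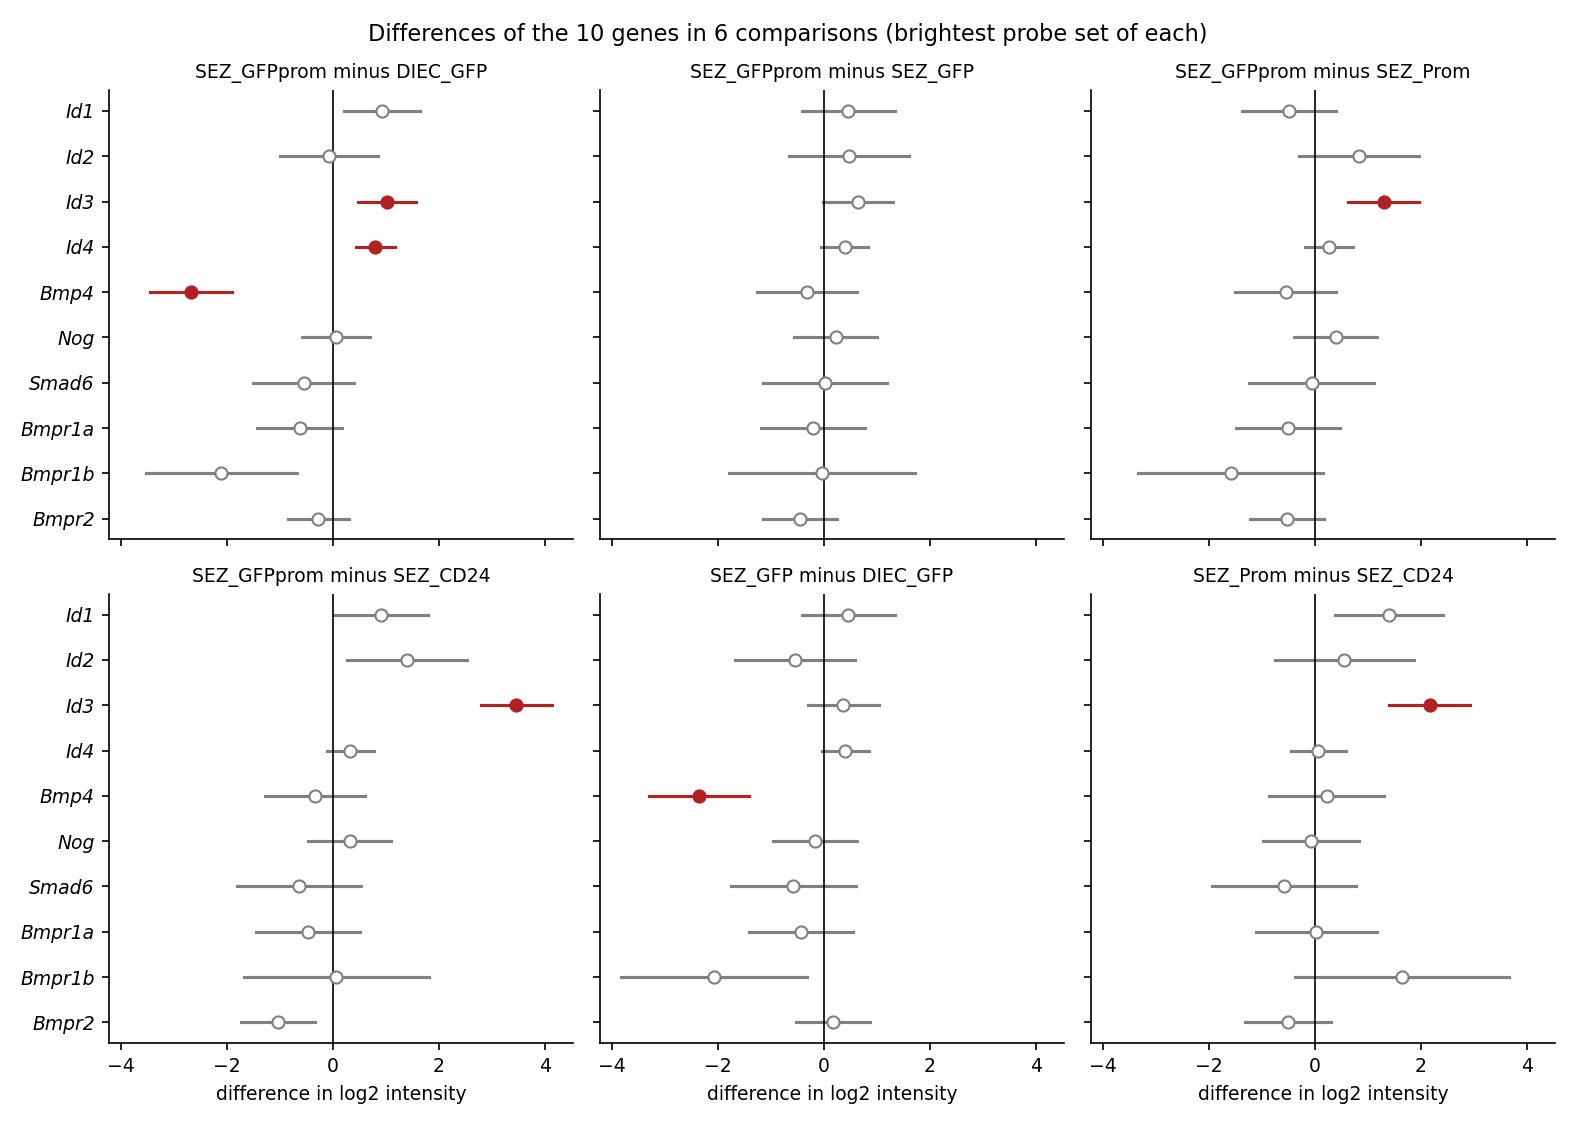
Differences in log2 intensity of the brightest probe set of each of the 10 genes in the 6 comparisons, first group minus second. Points are fitted differences, lines their 95% intervals, and filled red points passed at an adjusted p of 0.05. Id3 passed in 4 of the 6 comparisons, Bmp4 in 2 and Id4 in 1.

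Bmp4, the ligand, was highest in the diencephalic cells. Its intensities in DIEC_GFP were 221, 111, 186 and 126. SEZ_GFPprom read 31, 33, 19 and 18, SEZ_GFP 27 and 34, SEZ_Prom 31 and 41, and SEZ_CD24 52 and 18. Every DIEC_GFP array lay above every array from the subependymal zone, and the 4 subependymal groups overlapped one another. Bmp4 was 6.37-fold lower in SEZ_GFPprom than in DIEC_GFP (log2 difference -2.67, SE 0.35, n = 4 and 4, adjusted p 0.000986), and this passed under every alternative tried, with an adjusted p of at most 0.0137. It was 5.11-fold lower in SEZ_GFP than in DIEC_GFP (log2 difference -2.35, SE 0.43, n = 2 and 4, adjusted p 0.00667). That call was lost without SEZ_GFP replicate 1 (adjusted p 0.0738), without SEZ_GFP replicate 2 (0.0573) and with the 3' to 5' ratio as a covariate (0.0851). In sorted bulk RNA, fewer cells of a type and less RNA per cell cannot be told apart. DIEC_GFP carried more oligodendrocyte progenitor signal (summed 10652 to 14044) than SEZ_GFPprom (1130 to 2075), and SEZ_Prom, with 5591 to 7388, had Bmp4 intensities of 31 and 41. The part of these cells in the Bmp4 difference was not tested.

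Nog, the antagonist, lay between 7 and 20, with 11 of 14 arrays at 10 or under, the low end of the scale. Smad6 lay between 8 and 31, with 7 of 14 arrays at 10 or under. Neither passed a test in any comparison.

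**Figure D2:**
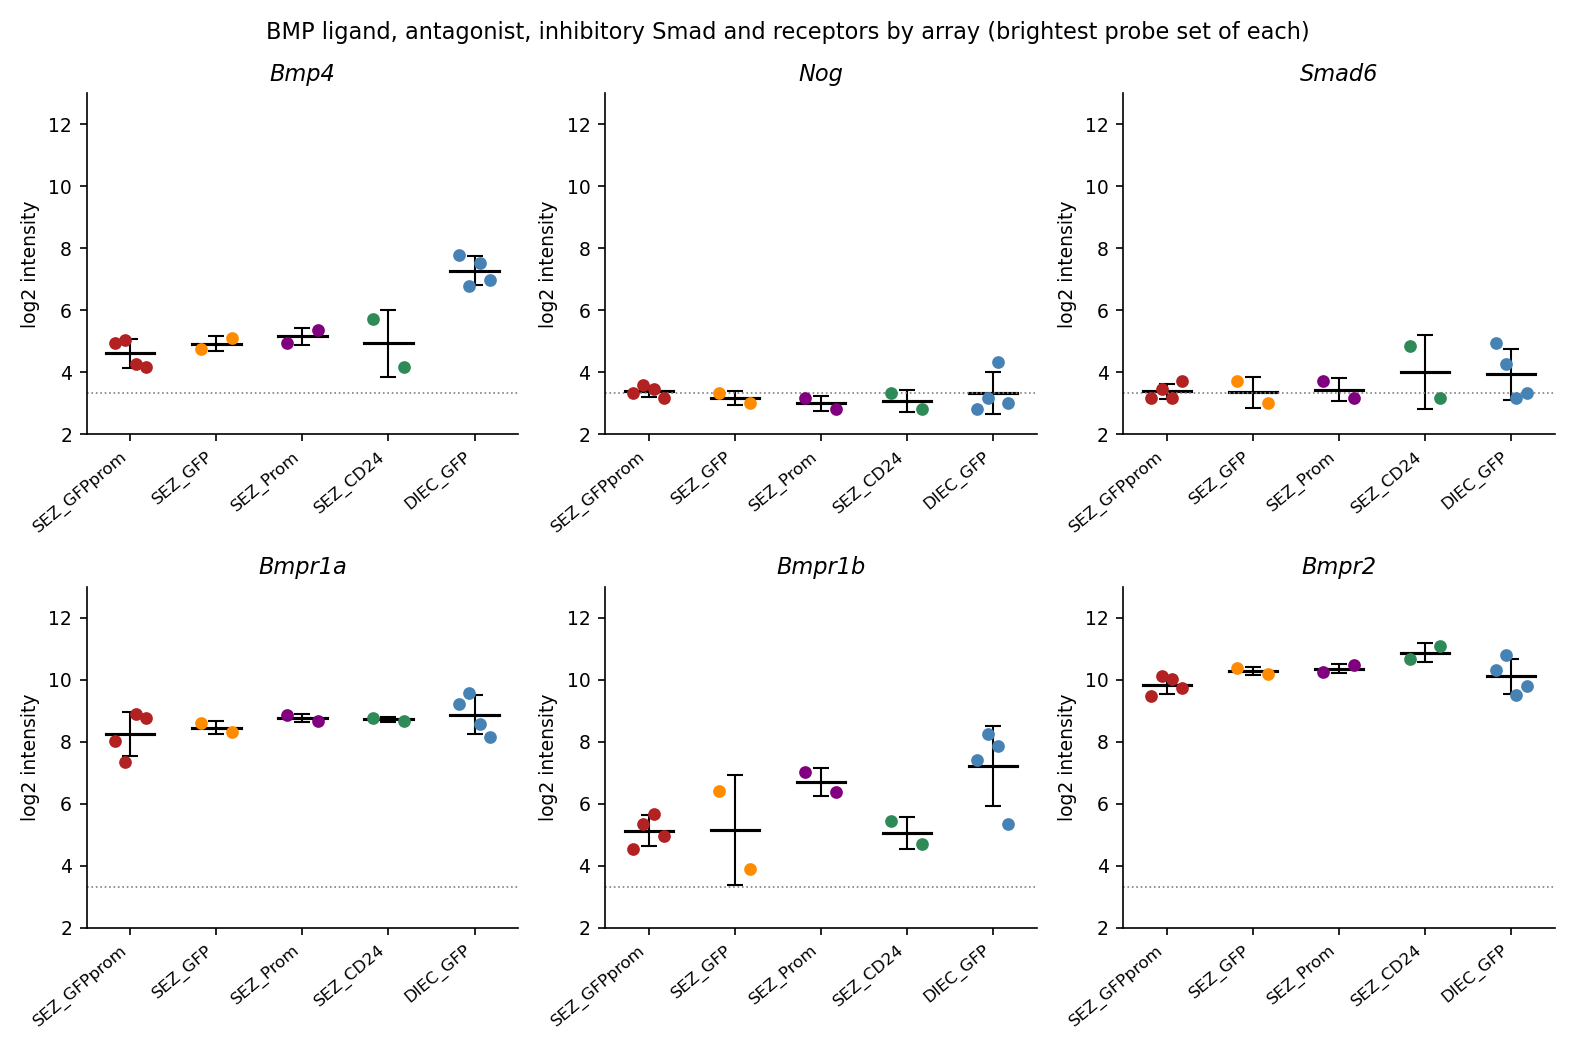
Log2 intensity of the brightest probe set of Bmp4, Nog, Smad6, Bmpr1a, Bmpr1b and Bmpr2 on each array (points), with group means (horizontal lines) and SD (bars). The dotted line marks an intensity of 10. The 4 DIEC_GFP arrays of Bmp4, from 111 to 221, stand above the other 10. For the receptors DIEC_GFP overlaps SEZ_GFPprom, and Bmpr2 is above SEZ_GFPprom on every SEZ_CD24, SEZ_GFP and SEZ_Prom array.

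The receptors gave no call by their brightest probe sets. Bmpr1a, a type I receptor, read 260, 163, 477 and 436 in SEZ_GFPprom and 591, 760, 383 and 286 in DIEC_GFP. SEZ_GFP read 391 and 316, SEZ_Prom 462 and 406, and SEZ_CD24 441 and 407, all within the spread of the larger groups. The difference between SEZ_GFPprom and DIEC_GFP was -0.62 in log2 intensity (95% interval -1.42 to 0.18, adjusted p 0.308), which leaves room for changes of more than 2-fold. Its other 5 probe sets, intensities 7 to 129, also passed nothing.

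Bmpr1b, the other type I receptor, read 172, 306, 234 and 41 in DIEC_GFP and 23, 41, 51 and 31 in SEZ_GFPprom. SEZ_Prom, at 131 and 84, lay above SEZ_GFPprom and within the range of DIEC_GFP. SEZ_GFP split at 85 and 15, and SEZ_CD24 read 43 and 26. Of these, SEZ_GFPprom and DIEC_GFP overlapped through DIEC_GFP replicate 4 alone, and SEZ_GFP spanned SEZ_GFPprom and SEZ_CD24. The difference of -2.10 between SEZ_GFPprom and DIEC_GFP (SE 0.65, 4.29-fold) missed the threshold, at an adjusted p of 0.0582. Its remaining probe sets lay near the floor, at 5 to 48.

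Bmpr2, the type II receptor, was measured by probe sets that pointed in different directions. The brightest read 714, 1121, 1039 and 845 in SEZ_GFPprom, 1279, 1773, 732 and 902 in DIEC_GFP, 1339 and 1171 in SEZ_GFP, 1233 and 1414 in SEZ_Prom, and 1617 and 2182 in SEZ_CD24. It was highest in SEZ_CD24, above every SEZ_GFPprom array, but that difference of -1.04 did not pass (SE 0.32, adjusted p 0.0663). Against DIEC_GFP the brightest gave -0.27 (adjusted p 0.552). A dim probe set, 1441652_at, gave 0.39 (adjusted p 0.338). The remaining one, 1419616_at, gave 0.86 (1.81-fold higher in SEZ_GFPprom, adjusted p 0.0494), from 148, 256, 191 and 127 against 109, 62, 97 and 130, groups that overlap by 1 array. It was lost in 18 of 23 settings, among them the removal of any of 12 arrays (adjusted p 0.0615 to 0.125), and kept without DIEC_GFP replicate 4 or SEZ_GFPprom replicate 4. Bmpr2 is therefore given with all 3 values and no direction.

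Among the Id genes, Id3 was graded across the groups. It read 342, 461, 419 and 407 in SEZ_GFPprom, 292 and 228 in SEZ_GFP, 189, 141, 304 and 197 in DIEC_GFP, 170 and 160 in SEZ_Prom, and 50 and 27 in SEZ_CD24. All 4 SEZ_GFPprom arrays lay above every other array, and both SEZ_CD24 arrays lay below every other. In that order the neighbours SEZ_GFPprom and SEZ_GFP did not pass (log2 difference 0.65, adjusted p 0.406), nor did SEZ_GFP and DIEC_GFP (0.37, adjusted p 0.581). Against SEZ_CD24, Id3 was 11.0-fold higher in SEZ_GFPprom (log2 difference 3.46, SE 0.30, n = 4 and 2, adjusted p 8.99e-05), and passed under every alternative, with an adjusted p of at most 0.00906.

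Id3 was also 2.03-fold higher in SEZ_GFPprom than in DIEC_GFP (log2 difference 1.02, SE 0.25, adjusted p 0.0219), and 4.49-fold higher in SEZ_Prom than in SEZ_CD24 (2.17, adjusted p 0.0115). The first did not pass once the 3' to 5' ratio entered the model (adjusted p 0.258) or without DIEC_GFP replicate 1 (0.0530), DIEC_GFP replicate 2 (0.0605), SEZ_GFPprom replicate 2 (0.0621) or SEZ_GFPprom replicate 3 (0.0502). The second was lost without SEZ_CD24 replicate 2 (0.0670), SEZ_Prom replicate 1 (0.0683) or SEZ_Prom replicate 2 (0.0675), with that ratio (0.0920) and when only SEZ_Prom and SEZ_CD24 were fitted (0.189). SEZ_GFPprom against SEZ_Prom, 2.46-fold higher (1.30, adjusted p 0.0390), was lost in 12 of 24 settings, including the removal of any SEZ_GFPprom, SEZ_GFP or SEZ_Prom array or of DIEC_GFP replicate 1 (0.0550 to 0.216). Beside Id3, the astrocyte marker sum was lowest in SEZ_CD24 (4624 to 12554, against 15265 to 32065 elsewhere), and the ependymal marker sum was highest in SEZ_GFPprom (14943 to 25398, against 5726 to 8754 in DIEC_GFP and 353 to 1366 elsewhere). Their part in the Id3 differences was not tested.

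**Figure D3:**
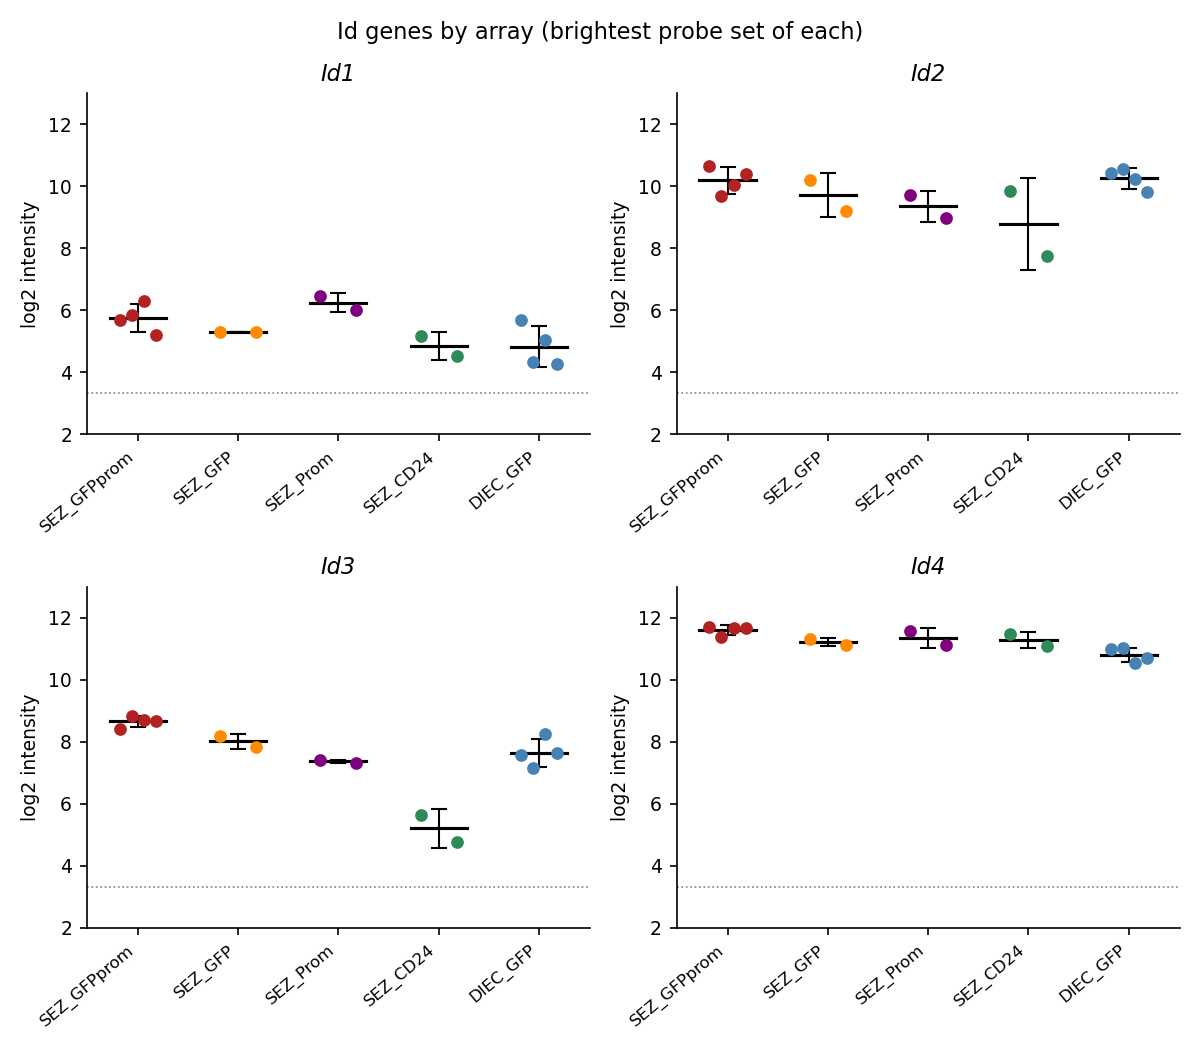
Log2 intensity of the brightest probe set of Id1, Id2, Id3 and Id4 on each array (points), with group means (horizontal lines) and SD (bars), and a dotted line at an intensity of 10. Id3 spans 27 to 461 with SEZ_GFPprom above all others, and Id4 spans 1491 to 3376.

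Id4, which like the other Id proteins lacks a DNA-binding region, had its lowest group mean in the diencephalon. Its brightest probe set, 1423259_at, read 3376, 2674, 3286 and 3257 in SEZ_GFPprom and 2027, 2084, 1491 and 1653 in DIEC_GFP. SEZ_GFP read 2550 and 2228, SEZ_Prom 3058 and 2226, and SEZ_CD24 2836 and 2187. All 10 subependymal arrays lay above every DIEC_GFP array, and the SEZ_GFPprom arrays lay above both SEZ_GFP arrays, a difference that did not pass (0.40, adjusted p 0.468). The difference between SEZ_GFPprom and DIEC_GFP was 1.75-fold (log2 0.80, SE 0.17, adjusted p 0.0104), and that between SEZ_GFP and DIEC_GFP did not pass (0.41, adjusted p 0.297).

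The other Id4 probe sets pointed the same way between SEZ_GFPprom and DIEC_GFP, with larger differences, but did not set DIEC_GFP below every subependymal array. On 1450928_at, DIEC_GFP replicate 2 (1817) lay just above SEZ_Prom replicate 2 (1814). On 1423260_at, DIEC_GFP replicate 4 (378) lay above the SEZ_Prom (268 and 376) and SEZ_CD24 (268 and 246) arrays. Probe set 1450928_at read 3341, 3317, 2777 and 3277 in SEZ_GFPprom against 1362, 1817, 767 and 1012 in DIEC_GFP, a 2.69-fold difference (log2 1.43, adjusted p 0.00415) that passed in every setting, at an adjusted p of at most 0.0276. Probe set 1423260_at read 860, 1331, 553 and 847 against 31, 125, 112 and 378, a 7.56-fold difference (2.92, adjusted p 0.00893) that was 2.30 without DIEC_GFP replicate 1 (adjusted p 0.00911). With the 3' to 5' covariate that difference fell to 1.54 (adjusted p 0.182), and that of the brightest probe set, at 0.83, no longer passed (0.0846). In SEZ_GFP, 1450928_at read 2589 and 3362, 2.51-fold above DIEC_GFP (adjusted p 0.0203), and 1423260_at read 669 and 833, 6.60-fold above (adjusted p 0.0403). The first of these was lost without SEZ_GFP replicate 1 (0.0720) or 2 (0.213), when only these groups were fitted (0.132) and with the covariate (0.107). With the covariate the second was 0.69 (adjusted p 0.825), and without DIEC_GFP replicate 1 it was 2.10 (0.0334). It was lost in 14 settings, 11 of which each left out 1 array (0.0501 to 0.259), and was kept without DIEC_GFP replicate 1, DIEC_GFP replicate 4 or SEZ_GFPprom replicate 3. The 3' to 5' ratio was 5.04 to 5.74 in DIEC_GFP, 4.78 to 5.17 in SEZ_GFPprom and 4.63 to 4.82 in SEZ_GFP. Every SEZ_GFP array thus lay below every DIEC_GFP array. For that comparison, RNA length and a group difference taken up by the covariate cannot be told apart. Proliferation markers summed to 408 to 998 in DIEC_GFP and to 1978 to 8853 in the subependymal groups, with 7 of 8 higher in SEZ_GFPprom than in DIEC_GFP. Neuroblast markers summed to 1090 to 1565 and to 2251 to 26792, with 6 of 9 higher. The part of these cells in the Id4 differences was not tested.

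**Figure D4:**
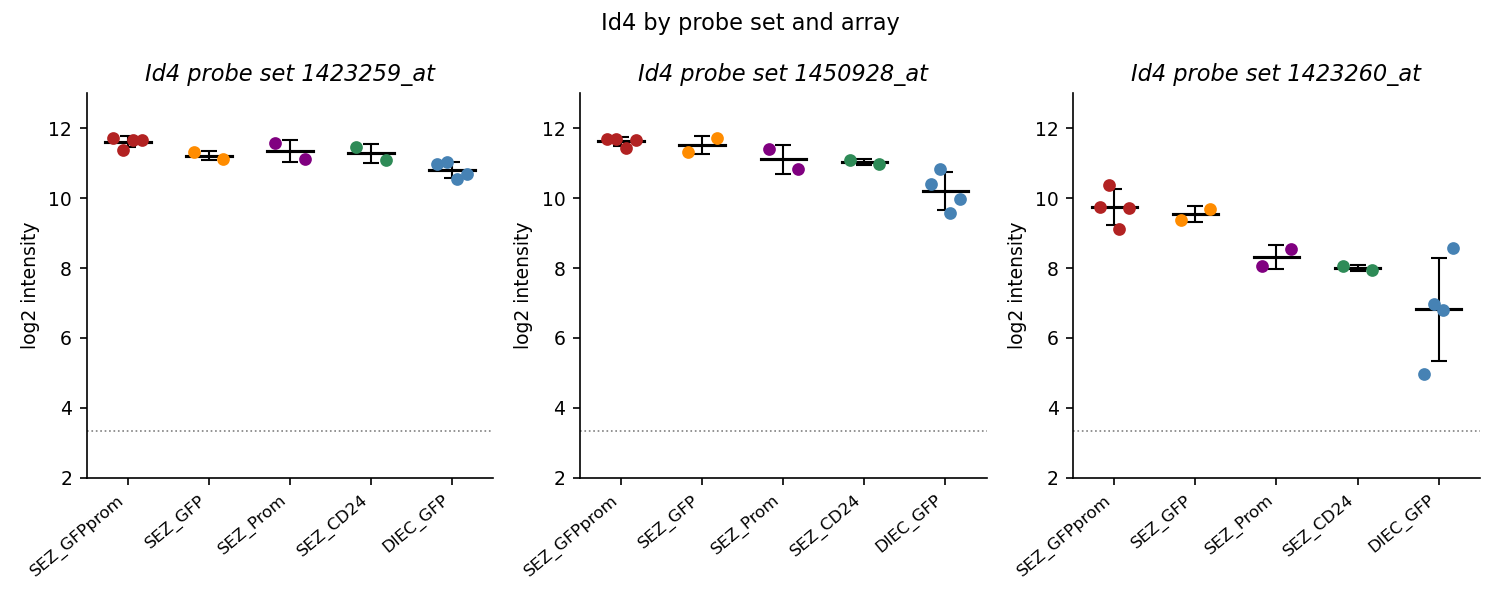
Log2 intensity of the 3 Id4 probe sets on each array (points), with group means (horizontal lines) and SD (bars), brightest first, and a dotted line at an intensity of 10. The DIEC_GFP mean is lowest on all of them, by 0.80, 1.43 and 2.92 in log2 intensity below SEZ_GFPprom.

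Id1 and Id2 passed no test. Id1 read 51, 57, 78 and 37 in SEZ_GFPprom, 39 and 39 in SEZ_GFP, 88 and 65 in SEZ_Prom, 36 and 23 in SEZ_CD24, and 51, 20, 33 and 19 in DIEC_GFP. Its highest mean was in SEZ_Prom, and its largest difference in the 6 comparisons, which do not set SEZ_Prom against DIEC_GFP, was 1.39 between SEZ_Prom and SEZ_CD24 and had an adjusted p of 0.133. Between SEZ_GFPprom and DIEC_GFP it was 0.93 (95% interval 0.21 to 1.65, adjusted p 0.0931). Id2 read 1607, 819, 1054 and 1343 in SEZ_GFPprom, 1370, 1524, 1211 and 896 in DIEC_GFP, 1190 and 595 in SEZ_GFP, 839 and 510 in SEZ_Prom, and 922 and 214 in SEZ_CD24. SEZ_GFPprom and DIEC_GFP overlapped throughout (-0.07, SE 0.42, adjusted p 0.943), and the difference from SEZ_CD24 of 1.40 did not pass (adjusted p 0.120). The other Id2 probe sets also passed nothing. Of them, 1422537_a_at read 96 to 131 in SEZ_GFPprom, above SEZ_GFP (89 and 57) and SEZ_CD24 (77 and 46). There SEZ_GFPprom overlapped DIEC_GFP (83 to 154) and SEZ_Prom (117 and 61). The dim 1453596_at lay at 12 to 46.

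Beyond the members, 77 of 83 listed genes of the pathway and of the partners and targets of Id proteins were measured by a probe set of their own. By brightest probe set, 15 of them passed between SEZ_GFPprom and DIEC_GFP, 8 higher and 7 lower (15.6% of all genes, 8.83% higher and 6.77% lower). Against SEZ_CD24 16 passed, 9 higher and 7 lower (12% of all genes, 8.0% higher and 4.01% lower), against SEZ_Prom 3 (5.38%), and against SEZ_GFP 2 (2.57%). The median difference of the 77 from DIEC_GFP was 0.02 in log2 intensity, beside 0.08 over all genes. SEZ_GFP against DIEC_GFP passed 10 (11.0%) and SEZ_Prom against SEZ_CD24 passed 6 (4.21%). Among the 12 ligands measured, Bmp6 was the one higher in SEZ_GFPprom than in every other group, at 254 to 489 against 22 to 37 in SEZ_GFP (12.2-fold, adjusted p 0.00107) and 29 to 40 in SEZ_CD24 (10.3-fold, adjusted p 0.000883). Both passed in every setting. The ependymal markers given beside Id3 ran highest in the same group, where all 9 measured were higher than in SEZ_GFP, SEZ_Prom and SEZ_CD24, and their part in the Bmp6 and Bambi differences was not tested. Against DIEC_GFP (66 to 171) Bmp6 was 3.51-fold higher (adjusted p 0.00681), lost with the covariate (0.0563). Against SEZ_Prom (63 to 122) it was 3.99-fold higher (0.0260), lost without SEZ_GFPprom replicate 1 or 4 or either SEZ_Prom array. The difference from SEZ_Prom was also lost with the covariate (0.0632) and when only these groups were fitted (0.0623). In SEZ_GFP it was 3.49-fold lower than in DIEC_GFP (0.0235), lost without DIEC_GFP replicate 1 or either SEZ_GFP array. That call was also lost when only these groups were fitted (0.105) and with the covariate (0.286). Bmp2, a ligand close to Bmp4, was low, at 11 to 21 in SEZ_GFPprom and 23 to 63 in DIEC_GFP (2.57-fold lower, adjusted p 0.0372, lost in 9 settings that include SEZ_GFPprom replicates 1, 2 and 4 and DIEC_GFP replicates 1, 2 and 4 left out, up to 0.199). In SEZ_GFP, Bmp2 was also below DIEC_GFP (log2 difference -2.23, adjusted p 0.0124), lost in 4 of 23 settings.

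Of 9 further receptors and co-receptors, Acvr2b, a type II receptor, was 2.06-fold higher in SEZ_GFPprom (245 to 319) than in DIEC_GFP (119 to 147, adjusted p 0.00265) and 3.43-fold higher in SEZ_GFP (353 to 558, adjusted p 0.000470), in every setting. Against SEZ_CD24 (507 to 557) it was 1.99-fold lower in SEZ_GFPprom (adjusted p 0.0116, lost without SEZ_CD24 replicate 1 or 2, up to 0.0699) and 2.70-fold lower in SEZ_Prom (0.0115, lost without SEZ_Prom replicate 1, up to 0.172 over all settings). Of 19 extracellular antagonists and modulators, Sostdc1, a secreted BMP antagonist, was 8.08-fold higher in SEZ_GFPprom (127 to 191) than in DIEC_GFP (14 to 28, adjusted p 0.000458), and Bmper, a secreted modulator, 14.9-fold higher (49 to 300 against 7 to 22, adjusted p 0.000971). DIEC_GFP values of Bmper reached under 10, and with such values set to 10 it was 11.8-fold higher (adjusted p 0.00347). Vwc2, another secreted antagonist, was 3.30-fold lower (13 to 15 against 31 to 56, adjusted p 0.000380). These 3 differences from DIEC_GFP passed in every setting. In SEZ_GFP, Bmper was also above DIEC_GFP (log2 difference 3.66, adjusted p 0.00471) and Vwc2 below it (-1.68, 0.00151). Both were lost with the covariate (0.0516 and 0.0682), and Bmper also without SEZ_GFP replicate 2. Sostdc1 was also higher in SEZ_GFPprom than in SEZ_GFP (3.01, 0.00358). That call was lost without SEZ_GFP replicate 2 and when only these groups were fitted (0.0514). Sostdc1 is also on the choroid plexus marker list, whose sums overlapped between SEZ_GFPprom (421 to 7754) and DIEC_GFP (1208 to 8730). The part of these cells in the Sostdc1 differences was not tested. Of 14 Smads and intracellular regulators, Bambi, a decoy receptor that BMP signalling induces, read 226 to 391 in SEZ_GFPprom. It was 2.99-fold above DIEC_GFP (65 to 114, adjusted p 0.00195), 6.27-fold above SEZ_Prom (36 to 50, adjusted p 0.000596) and 3.51-fold above SEZ_CD24 (71 to 81, adjusted p 0.00325), in every setting. Between SEZ_GFPprom and SEZ_GFP, Bambi did not pass, nor did any other of these 14 genes.

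Of 10 other targets, Hes1, a transcriptional repressor, was 2.78-fold lower in SEZ_GFPprom (52 to 198) than in DIEC_GFP (233 to 357, adjusted p 0.0174), lost with the covariate and when only these groups were fitted (up to 0.0694), and 2.90-fold higher than in SEZ_CD24 (27 to 43, adjusted p 0.0417). The latter was lost in 16 of 24 settings (up to 0.296), and of the 14 arrays DIEC_GFP replicate 1 and SEZ_GFPprom replicate 3 were the ones whose removal kept it. Hey1, a related repressor, was 3.59-fold higher in SEZ_GFPprom (154 to 250) than in SEZ_CD24 (45 to 70, adjusted p 0.00699), lost without SEZ_CD24 replicate 1 (0.0632), and 3.46-fold lower in SEZ_GFP than in DIEC_GFP (0.00755), lost without SEZ_GFP replicate 2 (up to 0.252 over all settings). Hey1 was also higher in SEZ_Prom than in SEZ_CD24 (log2 difference 1.62, adjusted p 0.0477), lost in 19 of 24 settings. The list of bHLH partners and other targets of Id proteins had 13 measured genes. Its oligodendrocyte-lineage factors Olig1 and Olig2 were 9.33-fold (368 to 1008 against 5188 to 7527, adjusted p 0.000903) and 4.42-fold (55 to 204 against 379 to 671, adjusted p 0.00322) lower in SEZ_GFPprom than in DIEC_GFP, in every setting. Both are also on the progenitor marker list whose sums are given beside Bmp4. In SEZ_GFP, Olig1 and Olig2 were also below DIEC_GFP (log2 differences -2.86 and -1.77, adjusted p 0.0060 and 0.0278). The Olig1 call was lost without SEZ_GFP replicate 2, and the Olig2 call in 5 of 24 settings. Olig1 was also lower in SEZ_GFPprom than in SEZ_Prom (-2.67, 0.0163), lost in 4 settings. SEZ_Prom lay above SEZ_CD24 in Olig1 (2.92, 0.0264) and Olig2 (2.40, 0.0283), lost in 5 and 6 settings. The other named genes passed less firmly. Against SEZ_CD24, SEZ_GFPprom was higher in Neo1, a receptor for RGM proteins (2.51-fold, adjusted p 0.0259), Bmp1, a protease that cleaves the antagonist chordin (2.35-fold, 0.0283), Zfp423, a Smad cofactor (3.61-fold, 0.0276), and Hes5, a Notch target (3.10-fold, 0.0219). It was lower in Rgmb, a BMP co-receptor (2.84-fold, 0.0261), Skil, a Smad repressor (2.83-fold, 0.0334), and Tcf12, an E protein that Id proteins bind (2.12-fold, 0.0270). The Hes5 difference was 2.50 without SEZ_CD24 replicate 1 and 0.76 without replicate 2, and that of Skil -0.86 and -2.14. All 7 were lost without SEZ_GFPprom replicate 2. Without SEZ_CD24 replicate 1, Bmp1, Skil, Zfp423 and Tcf12 were lost, and without SEZ_CD24 replicate 2, Rgmb, Neo1, Zfp423, Hes5 and Tcf12. Leaving out SEZ_GFPprom replicate 1 ended the call of Zfp423, replicate 3 those of Bmp1, Skil and Zfp423, and replicate 4 those of Bmp1, Skil and Tcf12, with an adjusted p of up to 0.269 over all settings. Smad4, the common partner of the receptor-activated Smads, and Tcf4, another E protein, were each 1.61-fold higher in SEZ_GFPprom than in DIEC_GFP (0.0221 and 0.0231). Smad4 was lost without DIEC_GFP replicate 1 or SEZ_GFPprom replicate 2 and Tcf4 without DIEC_GFP replicate 2 or SEZ_GFPprom replicate 3, and both with the covariate (up to 0.142 and 0.126). In SEZ_GFP they were 2.17-fold and 2.35-fold above DIEC_GFP (0.00646 and 0.00424), both lost without SEZ_GFP replicate 2 and with the covariate (0.0904 and 0.0556). Tcf4 was also lost when only these groups were fitted (0.0608). Tcf4 was 1.71-fold lower in SEZ_GFPprom than in SEZ_CD24 (0.0378), lost in 11 settings, among them those without either SEZ_CD24 or SEZ_Prom array or SEZ_GFPprom replicate 1, 2 or 4 (up to 0.245). In SEZ_Prom, Smad4 was 2.13-fold and Tcf4 2.57-fold lower than in SEZ_CD24 (0.0331 and 0.0157). Both were lost without SEZ_CD24 replicate 2 or either SEZ_Prom array. Both were also lost with the covariate (0.149 and 0.101) and when only these groups were fitted (0.213 and 0.172). In all, 12 of the 46 calls of the 20 named genes passed in every setting. The comparisons share SEZ_GFPprom, DIEC_GFP or SEZ_CD24 arrays and are not independent of one another.

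**Figure D5:**
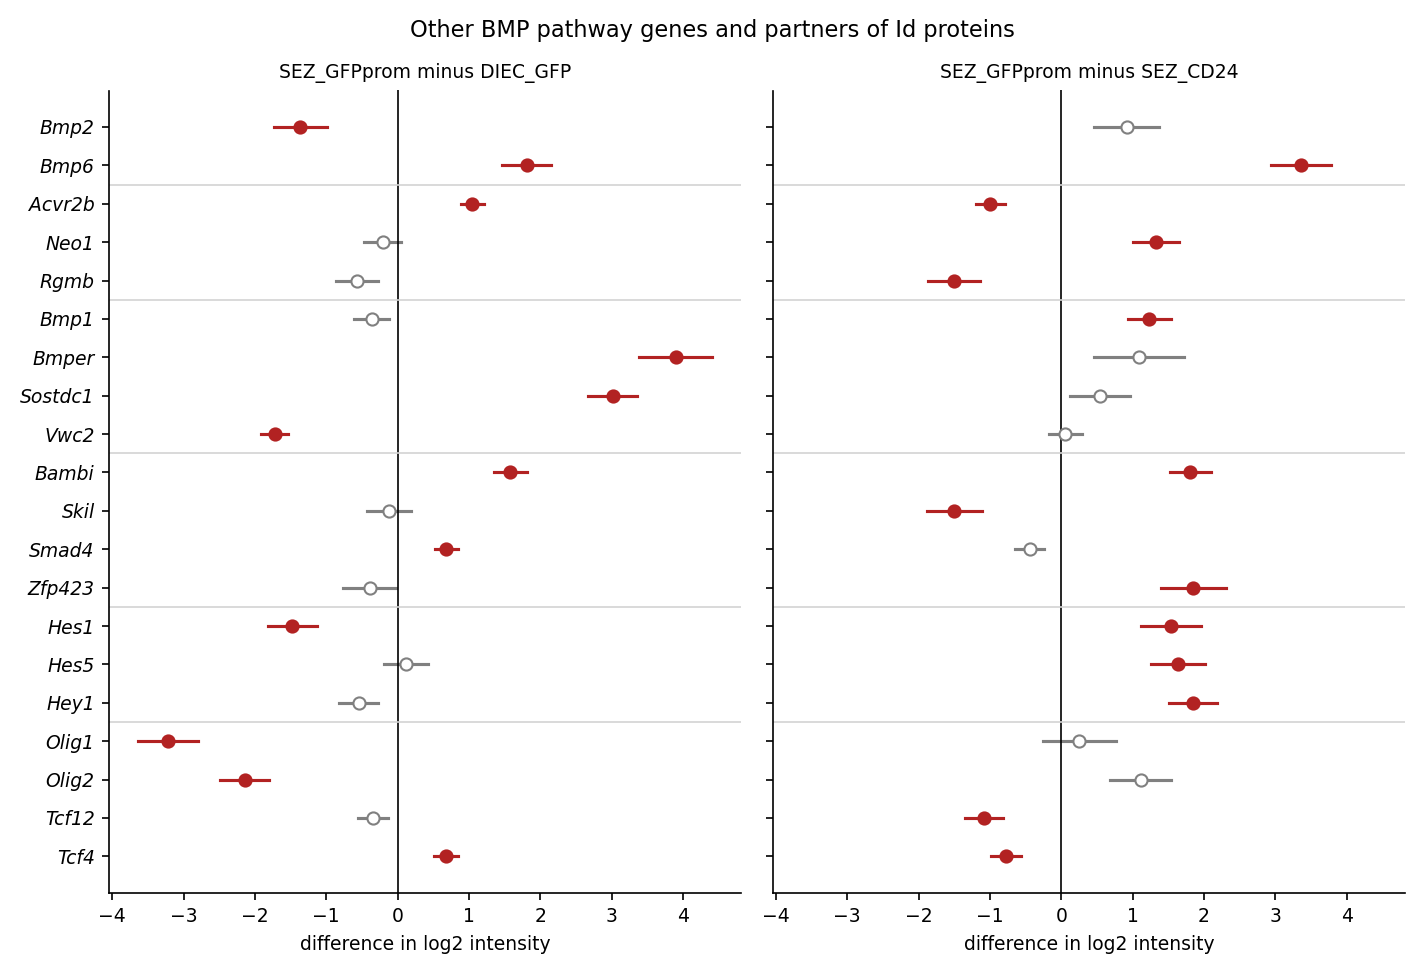
Differences in log2 intensity of 20 other pathway genes and bHLH partners between SEZ_GFPprom and DIEC_GFP (left) and between SEZ_GFPprom and SEZ_CD24 (right), in blocks of ligands, receptors, antagonists, intracellular regulators, targets and bHLH partners. Points are fitted differences, lines 1 SE to each side, filled red where the adjusted p passed 0.05. Bmp6 and Bambi are higher in SEZ_GFPprom in both, and Olig1 and Olig2 are lower against DIEC_GFP.

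The genes whose log2 intensity followed a member most closely over the 14 arrays are given as a description, with no test. For Id3 they were Churc1 (Pearson r 0.956), Gstm5 (0.947) and Dad1 (0.941), and for Id4 they were Rgs20 (0.894), Psmg4 (0.872) and Adgrl2 (0.871). For Id2 they were Itih5 (0.920), Cst3 (0.906) and Plpp1 (0.894), and for Id1 Mgll (0.899), Rangap1 (0.894) and Rps3 (0.889). The closest gene was Rdh5 for Bmp4 (0.938), Ccdc85a for Bmpr1b (0.919), Mapre1 for Bmpr2 (0.893) and Rcc1l for Bmpr1a (0.826). For Nog and Smad6, which lay near the floor, it was Gm13446 (0.935) and Rab20 (0.875). The 14 arrays share groups and processing, so these values also carry the differences between the 5 groups.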

How the data were processed

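Each sample was hybridised to 1 mouse Affymetrix array (MOE430 2.0). The authors deposited normalized intensity values on a linear scale, 1 per probe set, made with RMA per the submitters' processing notes; the software version is not given in the sources used here. Control probe sets (64 of 45101) were left out, log2 was taken, and limma 3.58.1 in R 4.3.3 was fitted to all 14 arrays with a mean per group, 6 comparisons and a moderated F test, adjusted by Benjamini-Hochberg over 45037 probe sets. The fit was tested on simulated data. Symbols came from the platform annotation: 34945 probe sets had 1, 932 several and 9160 none. The members and gene lists were chosen with earlier results of these data known. Pathway genes were named from those that passed, at most 4 per list, by smallest adjusted p. The labels do not say whether same-numbered arrays share animals. Deviations of same-numbered arrays from their group means correlated at -0.141 to 0.111, over 0.1 in 3 of 22 pairs. Among pairs with different numbers, 5 of 54 were over 0.1. In groups of 2 arrays the deviations are exact opposites, so the pairs are not independent and cannot decide on pairing. Alternatives covered quantile normalization, equal array medians, a floor, dim probe sets, 1 probe set per gene and the groups fitted. They also covered a replicate block, array weights, the prior, a 3' to 5' covariate and each array left out. Array medians were already equal (shift 0), so that setting repeats the main fit and could lose no call. It is counted among the 24 settings. The number of arrays limits the precision.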

Additional observations from a re-analysis of the deposited data

Results flagged for a closer look

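Of 46 member values checked in groups of 4 arrays, 3 held an array far from the others by Dixon's criterion, about as many as the 1 in 20 that chance gives. In SEZ_GFPprom, Id4 read 2674 on replicate 2 by probe set 1423259_at (the others 3257 to 3376) and 2777 on replicate 3 by probe set 1450928_at (the others 3277 to 3341). In DIEC_GFP, a dim Bmpr1b probe set, 1443720_s_at, read 6 on replicate 3 (the others 14 to 15).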

How the results depend on the processing

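None of the 12 member calls or 46 calls of named pathway genes changed sign under an alternative. Differences that did not pass in the main fit were not followed. Several alternatives change the error and not the difference, so they could not change its sign. Of the 12 member calls, 3 passed in every setting, 7 were lost by leaving out an array and 8 with the 3' to 5' covariate. Counts below are member probe sets that passed, then pathway genes. The share of all probe sets that passed was counted for the main fit only. A changed count below can therefore not be read as particular to these genes. SEZ_GFPprom minus SEZ_Prom gave 0 members with a floor of 10, 0 with the replicate block and 0 with the trend and robust prior, and 2 with the 3' to 5' covariate. The covariate also gave 2 members for SEZ_GFPprom minus DIEC_GFP, 0 for SEZ_GFP minus DIEC_GFP, 0 for SEZ_Prom minus SEZ_CD24 and 3 for the F test. The brightest probe set per gene gave 1 for SEZ_GFP minus DIEC_GFP and 3 for the F test, and fitting only the groups compared gave 1 and, for SEZ_Prom minus SEZ_CD24, 0. The replicate block gave 2 for SEZ_GFPprom minus SEZ_CD24; under it, Id3 in SEZ_GFPprom minus SEZ_Prom was 1.14 (adjusted p 0.117) and Id4 1450928_at in SEZ_GFP minus DIEC_GFP was 1.08 (0.0632), both lost. Whether replicate numbers pair these arrays is not known, so the block is a check only. Leaving out an array gave 4 to 7 members for SEZ_GFPprom minus DIEC_GFP, 0 to 0 for minus SEZ_GFP, 0 to 1 for minus SEZ_Prom, 1 to 3 for minus SEZ_CD24, 0 to 5 for SEZ_GFP minus DIEC_GFP, 0 to 1 for SEZ_Prom minus SEZ_CD24 and 3 to 6 for the F test. For pathway genes, only the groups compared gave 1 for SEZ_GFPprom minus SEZ_GFP, 1 for minus SEZ_Prom, 6 for minus SEZ_CD24 and 0 for SEZ_Prom minus SEZ_CD24; array weights gave 4 for SEZ_GFPprom minus SEZ_GFP and 5 for minus SEZ_Prom, as did the brightest probe set, 5. The block gave 8 for SEZ_GFPprom minus SEZ_CD24 and the covariate 8, 7 for minus DIEC_GFP, 2 for SEZ_GFP minus DIEC_GFP and 0 for SEZ_Prom minus SEZ_CD24. Left-out arrays gave 10 to 15, 1 to 3, 1 to 5 and 4 to 16 pathway genes for SEZ_GFPprom minus DIEC_GFP, SEZ_GFP, SEZ_Prom and SEZ_CD24, 2 to 12 for SEZ_GFP minus DIEC_GFP and 1 to 8 for SEZ_Prom minus SEZ_CD24. Groups of 2 arrays left 1 after such a removal, which was assumed to vary like the others. The cause of these changes was not tested. The 3' to 5' ratio did not overlap between SEZ_GFP and DIEC_GFP or between SEZ_Prom and SEZ_CD24. A call lost there with the covariate cannot be told apart from a group difference that the covariate took up. Values near 10 (Nog, Smad6) bear no differences.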
